A study of Mus musculus with 10 samples.

Results

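The genes described here are 10 markers of the early oligodendrocyte lineage, chosen by name among the 24391 gene names counted in mouse hippocampus after subarachnoid hemorrhage (SAH), a bleed into the space around the brain. The precursor markers are Pdgfra, Cspg4, Olig2, Lhfpl3 and C1ql1, and the markers of committed or early differentiating cells are Gpr17, Enpp6, Bcas1, Myrf and Nkx2-2. All 10 were found and all 10 had enough counts to be tested. Hippocampi of both sides were taken whole from male C57BL/6J mice (the study's methods print C56BL/6J) of 10 to 14 weeks, at 4 days. In SAH mice (animals 1 to 4) a filament inside the internal carotid artery perforated the circle of Willis on 1 side, and only mice with a large drop of cerebral blood flow were kept. Sham mice (animals 5 to 7) had the same operation but no artery was pierced, and Naive mice (animals 8 to 10) had no surgery. The labels give no drug treatment (surgery was under isoflurane, which Naive mice are not said to have had), none carried a transgene by the labels, and Sham and Naive mice together form the control group (n = 6).

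Oligodendrocyte precursors are dividing glial cells that persist in the adult brain and hold the receptor Pdgfra and the proteoglycan Cspg4 (NG2) at their surface. When a precursor commits, it loses these surface molecules, passes through a short stage that expresses Gpr17, and then turns on Enpp6, Bcas1 and Myrf before the genes of compact myelin. The transcription factors Olig2 and Nkx2-2 act along this route. In bulk tissue a lower level of such a gene can come from fewer cells or from less RNA per cell, and these cannot be told apart here.

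Between 19743388 and 27254655 read pairs were counted per mouse, and no library pair was alike enough to be a duplicate. SAH 3 stood apart over all genes: a chi-square per degree of freedom between its counts and those of each other mouse was 15.3 to 27.0, against 9.50 to 16.5 for SAH 4 and 3.62 to 9.84 among the other 8 mice. Levels are given as CPM (counts relative to the TMM-scaled library total), which compare mice within a gene, or as CPM per kilobase of exon, which compare genes. Markers of neurons (6 of 6) and of the hippocampus (5 of 5) were detected in every mouse and 0 of them passed the edgeR test described below in SAH against control (1, the hippocampal gene Spink8, had an unadjusted p under 0.05 and was called by DESeq2). Spink8 was called higher by edgeR in SAH against Naive. Against control it passed with no filter, with averaged controls and without SAH 1, SAH 2, Sham 6 or Sham 7. Markers of choroid plexus, a tissue next to the hippocampus, varied widely: the 5 markers summed to between 43.7 and 817 CPM in control mice and between 98.9 and 1211 CPM in SAH mice, with the highest sums in SAH 3 (1211), SAH 4 (852) and Sham 7 (817). Every SAH sum was above every Naive sum (43.7 to 66.5 CPM). All 5 had a log2 fold change above 0 in SAH against control (median 1.07), where 0 were called by edgeR or DESeq2 and 1 had an unadjusted p under 0.05, but 5 were called by edgeR without Sham 7. Against Naive their median was 2.16 and 1, Ttr, was called by edgeR. The part of choroid plexus in the results below was not tested.

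RefSeq promoter sequences (GRCm38.p6) were available for 6 of the 10 members, namely Pdgfra, Cspg4, Olig2, Lhfpl3, Enpp6 and Nkx2-2. The 250 bases before the transcription start are shown for 4 of them, Lhfpl3 and Enpp6, whose levels were lower in all 4 SAH mice than the control mean, and Pdgfra and Cspg4, whose mean levels differed little between the groups. Olig2 was also lower in all 4 SAH mice than the control mean, and its promoter is not shown. Capitals mark 6-letter matches on either strand to the SOX words ACAAAG and ACAATG, bound by factors such as Sox10, or to the E-box words CAGCTG and CAGATG, bound by basic helix-loop-helix factors such as Olig2.
Lhfpl3: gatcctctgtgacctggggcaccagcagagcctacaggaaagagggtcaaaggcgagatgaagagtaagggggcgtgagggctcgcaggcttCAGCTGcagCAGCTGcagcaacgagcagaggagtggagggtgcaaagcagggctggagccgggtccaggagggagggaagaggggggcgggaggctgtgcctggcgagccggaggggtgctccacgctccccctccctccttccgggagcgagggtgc
Enpp6: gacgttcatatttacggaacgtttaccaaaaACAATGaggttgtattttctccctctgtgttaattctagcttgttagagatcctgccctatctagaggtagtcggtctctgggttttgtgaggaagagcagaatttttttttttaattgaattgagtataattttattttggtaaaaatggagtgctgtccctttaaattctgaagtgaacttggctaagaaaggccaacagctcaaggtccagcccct
Pdgfra: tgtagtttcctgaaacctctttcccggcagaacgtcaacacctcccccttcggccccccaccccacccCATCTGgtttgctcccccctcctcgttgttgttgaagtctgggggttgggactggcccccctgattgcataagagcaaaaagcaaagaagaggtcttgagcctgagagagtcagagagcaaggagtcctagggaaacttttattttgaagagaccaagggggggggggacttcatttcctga
Cspg4: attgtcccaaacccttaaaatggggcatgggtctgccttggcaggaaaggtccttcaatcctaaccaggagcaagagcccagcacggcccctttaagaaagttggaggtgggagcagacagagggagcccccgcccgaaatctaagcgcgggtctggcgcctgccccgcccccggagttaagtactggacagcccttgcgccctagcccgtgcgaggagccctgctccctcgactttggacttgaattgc
The positions are chr5:22745804-22746053 for Lhfpl3, chr8:46986637-46986886 for Enpp6, chr5:75152001-75152250 for Pdgfra and chr9:56864854-56865103 for Cspg4, all on the plus strand. Lhfpl3 held 2 E-box matches that lie close together but do not overlap, and Enpp6 held 1 SOX match. Pdgfra held 1 E-box match and Cspg4 held 0 matches. Among the promoters not shown, Olig2 held 1 SOX match and Nkx2-2 held 1 E-box match. Of the 32851 promoters in the table, 25.2% held a SOX word and 25.5% an E-box word in a window of this length, so 1 match is common. The words CTGGCAC and CTGGTAC, bound by Myrf, were in 5.93% of all promoters and in 0 of these 6. These matches describe the letters only.

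The 10 members covered a wide range of levels in control hippocampus. Per kilobase, Bcas1 stood first at 67.7 ± 6.83 CPM per kilobase (SD, n = 6), well above Gpr17 at 17.5 ± 2.43. Myrf (12.6 ± 1.15), Olig2 (12.3 ± 1.20) and Pdgfra (11.5 ± 0.356) followed in CPM per kilobase, and neighbours among these had overlapping ranges. Lhfpl3 was at 9.05 ± 0.193 and C1ql1 at 7.92 ± 0.304 CPM per kilobase, each apart from its neighbours. The lowest were Enpp6 (3.51 ± 0.766), Cspg4 (2.60 ± 0.147) and Nkx2-2 (1.98 ± 0.328 CPM per kilobase), with Enpp6 and Cspg4 overlapping. Even the lowest, Nkx2-2, had at least 41 counts in each library.

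**Figure D1:**
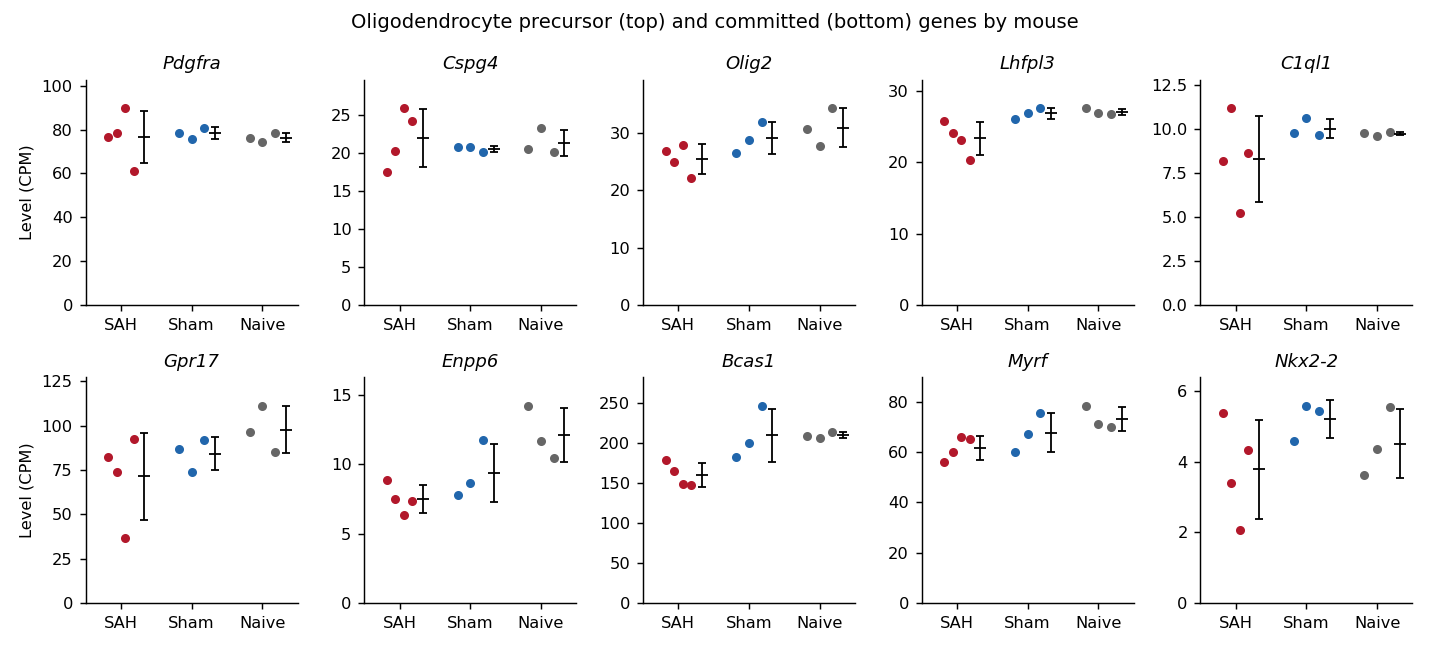
Level in CPM (y axis, from 0) of each member in every mouse (points), by group (x axis: SAH, n = 4; Sham, n = 3; Naive, n = 3), with the group mean and SD beside the points. Precursor genes are in the top row and committed genes in the bottom row; the Bcas1 and Lhfpl3 points of the SAH mice all lie below every Sham and Naive point, while those of Pdgfra and Cspg4 lie on both sides.

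After SAH 9 of the 10 genes had a lower mean level than in control mice, and Bcas1, a committed gene, differed most clearly. Of the 5 committed genes 1 fell past the threshold (adjusted p under 0.10, edgeR's quasi-likelihood test with Benjamini-Hochberg adjustment over all genes), and of the 5 precursor genes 0 did. DESeq2 in place of edgeR called 3 members, namely Bcas1, Enpp6 and the precursor gene Lhfpl3, where it called 2.46% of all genes lower. Over all 14993 genes tested, 1.54% were called lower and 3.13% higher in SAH than in control, so 1 of 10 members called lower is more than the share of all genes but rests on a single gene. The log2 fold change was below 0 for all 5 committed genes (median -0.36) and for 4 of 5 precursor genes (median -0.21), against a median of -0.002 over all genes. The 18 mature oligodendrocyte genes described below had a lower median, -0.48, so a lower level was not particular to the committed genes. At an unadjusted p under 0.05, 5 of the 10 members were lower (the committed genes Bcas1, Enpp6 and Myrf and the precursor genes Lhfpl3 and Olig2), against 7.87% of all genes lower at that p.

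Bcas1, which encodes a protein of early myelinating oligodendrocytes, is on chromosome 2 (mm9, 170172491 to 170253345, minus strand). Its level was 179, 164, 148 and 147 CPM in SAH mice 1 to 4. In control mice it was 182, 200 and 246 CPM (Sham) and 208, 206 and 214 CPM (Naive). Every SAH mouse was below every control mouse, although SAH 1 and Sham 5 were nearly equal. Its mean was 209 ± 21.1 CPM (SD, n = 6) in control and 160 ± 15.1 CPM (SD, n = 4) in SAH mice, a log2 fold change of -0.39 ± 0.076 (SE, the standard error, with an adjusted p of 0.0140 by edgeR's quasi-likelihood test). An exact permutation test of the 2 groups gave p = 0.00952, the smallest that 4 against 6 mice allow. Such a complete separation with SAH lower was seen in 2 of the 10 members, Bcas1 and Lhfpl3, and in 2.37% of all genes tested. With each mouse left out in turn the Bcas1 log2 fold change stayed between -0.45 and -0.34 and remained called (-0.36 without SAH 3).

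Enpp6, a choline phosphodiesterase that marks newly formed oligodendrocytes, lies on chromosome 8 (mm9, 48072279 to 48180249, plus strand). It was at 8.85, 7.50, 6.32 and 7.35 CPM in SAH mice, at 7.76, 8.64 and 11.8 CPM in Sham mice and at 14.3, 11.7 and 10.5 CPM in Naive mice. All 4 SAH mice were below every Naive mouse, but SAH 1 was above Sham 5 and Sham 6. The log2 fold change against control was -0.52 ± 0.156 (SE), the largest of the 10 in size, with an adjusted p of 0.103 in edgeR's quasi-likelihood test, just outside the threshold. An exact permutation test gave p = 0.0286. The call turned on single mice, since Enpp6 passed the threshold without SAH 1, without Sham 5 or without Sham 6, and without SAH 3 its log2 fold change was -0.45.

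Gpr17, the G protein-coupled receptor of committed precursors, was set apart by 1 animal. It was at 82.5, 73.6, 36.5 and 92.6 CPM in SAH mice, at 87.1, 73.6 and 91.8 CPM in Sham mice and at 96.7, 111 and 85.2 CPM in Naive mice. SAH 3 was far below all other mice, and the other SAH mice lay within the control range. Its log2 fold change was -0.35 ± 0.188 (SE, adjusted p = 0.375, edgeR), and without SAH 3 it was -0.13. Nkx2-2, a homeodomain transcription factor, was also lowest in SAH 3: it was at 5.37, 3.38, 2.07 and 4.32 CPM in SAH mice and between 3.61 and 5.59 CPM in control mice. Its log2 fold change of -0.36 ± 0.209 (SE, adjusted p = 0.411, edgeR) became -0.17 without SAH 3 and -0.56 without SAH 1, and SAH 2 was also below every control mouse.

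Myrf, the membrane-bound transcription factor that switches on myelin genes, had a mean 12.3% lower in SAH than in control mice. Its level was 55.9, 59.9, 66.0 and 65.1 CPM in SAH mice, 60.1, 67.2 and 75.6 CPM in Sham mice and 78.5, 71.0 and 70.0 CPM in Naive mice. SAH 1 and SAH 2 were below all control mice, SAH 3 and SAH 4 were inside the control range, and all 4 were below every Naive mouse. This log2 fold change of -0.19 ± 0.071 (SE, adjusted p = 0.189, edgeR's quasi-likelihood test) did not pass the threshold, except without Sham 5.

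The precursor genes did not move as a block. Pdgfra, the receptor for platelet-derived growth factor A that keeps precursors dividing, was at 76.6, 78.4, 89.8 and 61.2 CPM in SAH mice and between 74.2 and 80.9 CPM in control mice (median 77.2). SAH 3 was the highest and SAH 4 the lowest of the 10 mice, and the other SAH mice were inside the control range. Its log2 fold change was -0.01 with a 95% interval of -0.18 to 0.15 (adjusted p = 0.943, edgeR), and it was -0.098 without SAH 3 and 0.079 without SAH 4. Cspg4, the NG2 proteoglycan, was at 17.5, 20.3, 26.0 and 24.2 CPM in SAH mice and between 20.2 and 23.3 CPM in control mice (median 20.6). Its log2 fold change was 0.07, with a 95% interval of -0.13 to 0.27 (adjusted p = 0.727, edgeR), and it was -0.01 without SAH 3. The SAH mice thus lay on both sides of the control mice for both genes, and the spread was wider in SAH: the SD of Pdgfra was 11.8 CPM in SAH and 2.40 CPM in control, and that of Cspg4 was 3.82 and 1.18 CPM. Both genes are also expressed outside the lineage, Cspg4 in pericytes and Pdgfra in fibroblasts.

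Lhfpl3, a membrane protein gene that marks precursors, was the precursor gene with the clearest difference. It was at 25.8, 24.1, 23.1 and 20.3 CPM in SAH mice, at 26.0, 27.0 and 27.6 CPM in Sham mice and at 27.6, 26.8 and 26.8 CPM in Naive mice. The control mice were tightly grouped and every SAH mouse was below them, SAH 1 by a small margin. For Lhfpl3 the log2 fold change was -0.21 ± 0.062 (SE) with an adjusted p of 0.1004 in edgeR's quasi-likelihood test, which missed the threshold by little, and an exact permutation test gave p = 0.00952. It passed the threshold without SAH 1 or without SAH 2. Its promoter is the one shown above with the pair of E-box matches, whose bearing on its level was not tested.

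Olig2, the basic helix-loop-helix factor that specifies the lineage, was at 26.8, 24.9, 27.9 and 22.1 CPM in SAH mice and between 26.4 and 34.3 CPM in control mice (median 29.7). All 4 SAH mice were below the control mean, and SAH 2 and SAH 4 were below every control mouse. For Olig2 the log2 fold change was -0.24 ± 0.082 (SE, adjusted p = 0.152 in edgeR's quasi-likelihood test), with p = 0.0476 in an exact permutation test. C1ql1, a secreted C1q-like protein of precursors, was at 8.17, 11.2, 5.20 and 8.63 CPM in SAH mice and between 9.62 and 10.6 CPM in control mice (median 9.74). SAH mice were thus spread from below to above a narrow control range. The log2 fold change of C1ql1 was -0.24 ± 0.147 (SE, adjusted p = 0.438, edgeR), which moved to -0.07 without SAH 3 and to -0.42, past the threshold, without SAH 2.

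**Figure D2:**
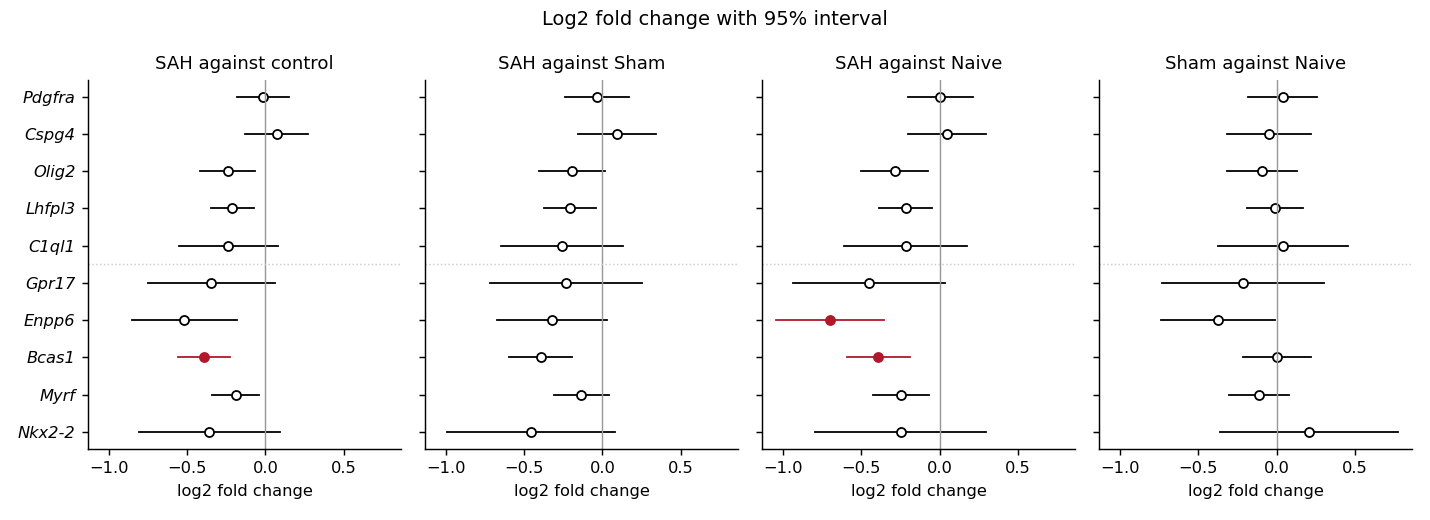
Log2 fold change (x axis) with its 95% interval for each member (y axis; precursor genes above the dotted line) in 4 comparisons. Filled red points passed an adjusted p of 0.10: Bcas1 in SAH against control, and Enpp6 and Bcas1 in SAH against Naive.

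The 2 control groups answer different questions, the effect of the bleed beyond surgery (Sham) and that of surgery and bleed together (Naive), and the comparisons share mice. Against Sham, 0 of 10 members passed the threshold in edgeR's quasi-likelihood test, where 0.192% of all genes were called lower. At an unadjusted p under 0.05 2 members were lower, Bcas1 and Lhfpl3, against 3.83% of all genes, and DESeq2 called 1, Bcas1, where it called 0.468% of all genes lower. Bcas1 had a log2 fold change of -0.39 ± 0.093 against Sham (SE, adjusted p = 0.110, edgeR). It passed without SAH 1, and without Sham 7, the highest Sham mouse, it was -0.26 with an adjusted p of 0.392. Against Naive, 2 members were called lower, where 0.965% of all genes were: Enpp6 with a log2 fold change of -0.70 ± 0.159 (SE, adjusted p = 0.0471) and Bcas1 with -0.39 ± 0.093 (SE, adjusted p = 0.0581), both in edgeR's quasi-likelihood test. Enpp6 lost its call without SAH 4, Naive 8 or Naive 9, and Bcas1 without SAH 4 or any 1 Naive mouse. Lhfpl3 and Myrf were also lower in every SAH mouse than in every Naive mouse, with an adjusted p of 0.205 and 0.172 (edgeR), which makes 4 of 10 members without overlap, where 6.75% of all genes tested had this separation.

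Surgery without perforation was set against no surgery in the last comparison. In Sham against Naive 0 of 10 members were called by edgeR's quasi-likelihood test and 0 by DESeq2, where 0.00661% of all genes were called by edgeR in either direction and 0.0102% by DESeq2. At an unadjusted p under 0.05 there was 1 member, Enpp6, against 2.02% of all genes. Enpp6 was at 9.38 ± 2.10 CPM (SD, n = 3) in Sham and 12.1 ± 1.93 CPM (SD, n = 3) in Naive mice, a log2 fold change of -0.37 ± 0.167 (SE, adjusted p = 1.00, edgeR), which was -0.57 without Sham 7 and -0.24 without Naive 8. Bcas1 was at 209 ± 33.1 CPM in Sham and 209 ± 3.96 CPM in Naive mice (SD, n = 3 each), so its Sham mice varied more around the same mean. The 95% intervals of the Sham against Naive log2 fold change reached from -0.21 to 0.22 for Bcas1 and from -0.74 to -0.01 for Enpp6.

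**Figure D3:**
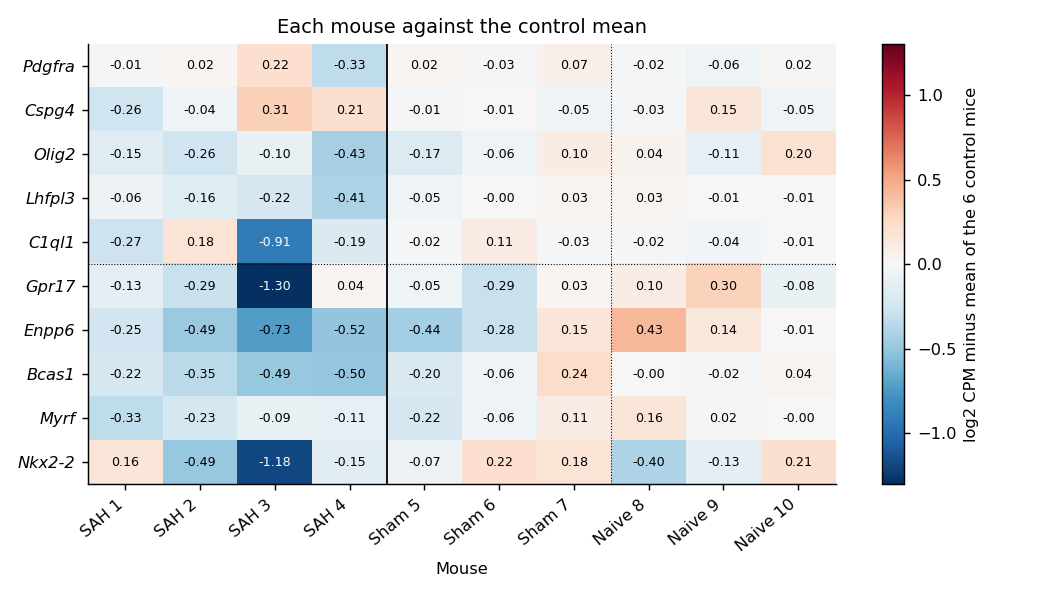
Log2 CPM of each member (rows) in each mouse (columns) minus the mean of the 6 control mice, as colour and number; the solid line parts SAH from control mice and the dotted line precursor from committed genes. SAH 3 is darkest for Gpr17 (-1.30), Nkx2-2 (-1.18) and C1ql1 (-0.91) while its Pdgfra (0.22) and Cspg4 (0.31) are above the control mean.

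The lowest of the 10 mice was a SAH mouse for each of the 10 members, where 52.6% of all genes tested had their lowest value in a SAH mouse, but it was not the same mouse. SAH 3 was lowest for 4 members (C1ql1, Gpr17, Enpp6 and Nkx2-2), SAH 4 for 4 (Pdgfra, Olig2, Lhfpl3 and Bcas1) and SAH 1 for 2 (Cspg4 and Myrf). The highest mouse was also a SAH mouse for 3 members, SAH 3 for Pdgfra and Cspg4 and SAH 2 for C1ql1, where this held for 51.5% of all genes. The ratio of Gpr17 to Pdgfra, taken per kilobase, was 0.527 in SAH 3, against 1.22 to 1.96 in the other 9 mice. The ratio of Bcas1 to Pdgfra per kilobase was 5.09, 4.56, 3.59 and 5.23 in SAH mice, 5.06, 5.77 and 6.64 in Sham mice and 5.96, 6.05 and 5.95 in Naive mice, so SAH 2 and SAH 3 were below all control mice and SAH 1 and SAH 4 were above Sham 5. Summed over the 5 committed genes, the level was between 259 and 331 CPM in SAH and between 341 and 431 CPM in control mice, without overlap, and Bcas1 makes up the largest share of this sum. Summed over the 5 precursor genes it was between 136 and 172 CPM in SAH and between 161 and 170 CPM in control mice. Such sums weight genes by level, and a mean of log2 CPM minus the control mean, with genes weighted alike, gave the reverse. On that scale the groups overlapped for the committed genes (-0.759 to -0.154 in SAH, -0.195 to 0.141 in control mice). For the precursor genes they did not (-0.231 to -0.052 in SAH, -0.046 to 0.03 in control mice). How often other sets of 5 genes separate was not tested.

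**Figure D4:**
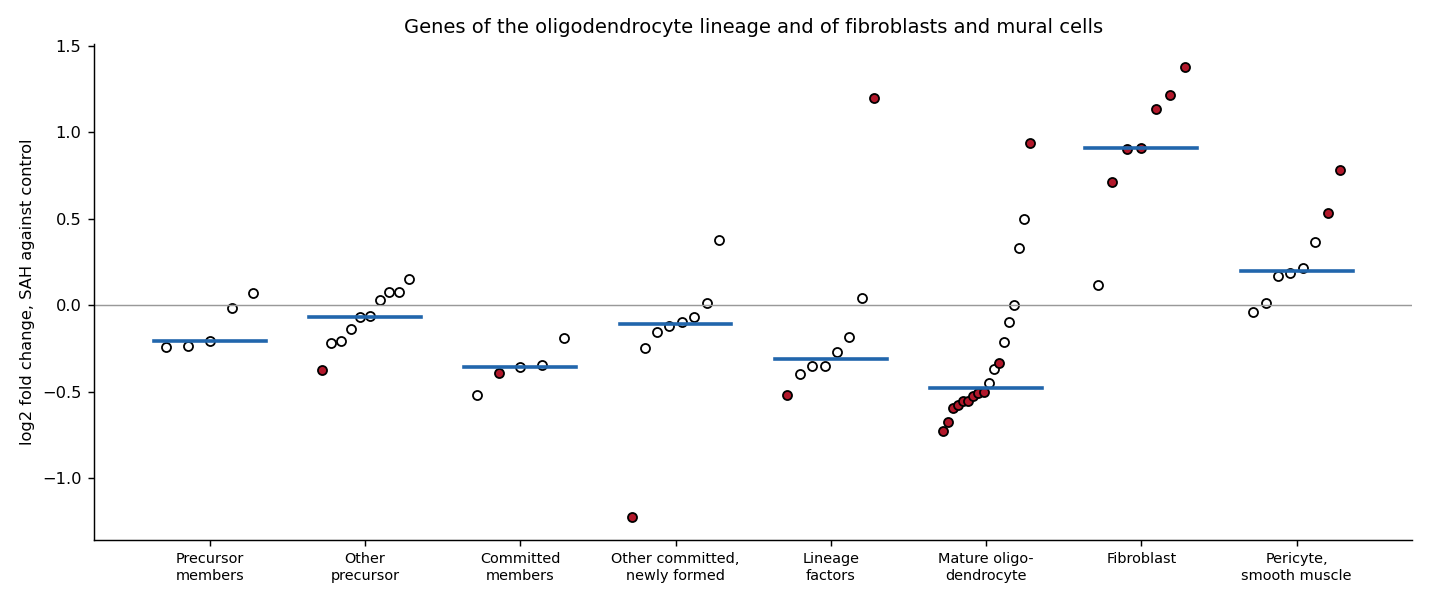
Log2 fold change, SAH against control (y axis), of the tested genes (points) in each gene list (x axis), filled red where the adjusted p was under 0.10; the blue bar is the list's median. The medians are -0.21 and -0.36 for the precursor and committed members, -0.48 for mature oligodendrocyte genes and 0.91 for fibroblast markers.

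Other genes of each stage were taken from lists of markers. Of 10 other precursor genes 6 had a log2 fold change below 0 and 1 fell, Pcdh15, a protocadherin, which was at 17.2 ± 2.60 CPM (SD, n = 6) in control and 13.2 ± 1.10 CPM (SD, n = 4) in SAH mice, with a log2 fold change of -0.38 ± 0.109 (SE, adjusted p = 0.0886, edgeR); the median of that list was -0.07. The Pcdh15 call was lost without SAH 1, SAH 3, SAH 4, Sham 5, Sham 6 or any 1 Naive mouse. It was also lost with library size alone and with averaged controls. Without Sham 7 Megf11 was called as well, and without SAH 1 Cspg5 was called instead. Of 8 other genes of committed and newly formed oligodendrocytes 6 had a log2 fold change below 0 and 1 fell, the noncoding RNA gene 9630013A20Rik, which went from 5.70 ± 1.33 to 2.42 ± 0.364 CPM with a log2 fold change of -1.23 ± 0.188 (SE, adjusted p = 0.00440, edgeR); the list's median was -0.11. This change was larger than that of any of the 10 members. Of 18 mature oligodendrocyte genes 10 fell and 1 rose, with a median of -0.48. Among those with the smallest p were Mag, Mbp, Mog, Cnp and Mal, all proteins of the myelin sheath, with log2 fold changes of -0.67, -0.59, -0.73, -0.58 and -0.53. The riser was Apod, a lipid-binding apolipoprotein also made by fibroblasts, at 0.94 (named after its value was seen). Several of these myelin genes were picked by the study from these same libraries, so that count is not independent evidence of its direction, and the counts of the stages were not tested against each other.

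Among regulators of the lineage, 8 of 9 transcription factors other than the members were tested. By edgeR 1 fell and 1 rose, and DESeq2 called 5, with Olig1, Sox8 and Sox10 added. Nkx6-2, a homeodomain factor of oligodendrocytes, fell from 12.4 ± 2.06 to 8.65 ± 1.29 CPM (log2 fold change -0.52, standard error 0.128, adjusted p = 0.0492, edgeR). Sox17 rose, with a log2 fold change of 1.20 ± 0.276 (SE, adjusted p = 0.0365, edgeR), and is also a gene of arterial endothelium. Neither was called without SAH 4. Leaving out SAH 1 or SAH 2 gave 3 called, with Sox8 added. In SAH against Sham edgeR called 1 of the list, Nkx6-2, and in SAH against Naive 0. Sox10, which acts with Olig2 throughout the lineage, had a log2 fold change of -0.40 ± 0.137 against control (SE, adjusted p = 0.154, edgeR) and its lowest value, 25.9 CPM, in SAH 3. Without SAH 3, however, edgeR called Sox10 and Olig1 lower, which made 4 of the list called. Of 9 inhibitors of differentiation 1 fell, Gpr37, a receptor of maturing oligodendrocytes, at -0.31 (adjusted p = 0.0422, edgeR; not called without SAH 4 or Naive 8), and the median was 0.00. Of 9 tested growth factors acting on precursors 2 rose, Igf1 (log2 fold change 0.26, adjusted p = 0.0886) and Cxcl12 (0.58, adjusted p = 0.0736, both edgeR), and 0 fell. Both calls were fragile: Igf1 lost its call without any 1 of 9 mice (all but SAH 3), and Cxcl12 without Sham 5, Sham 6 or any 1 Naive mouse. DESeq2 called 3 of the list, with Bmp7 added, and edgeR called Bmp7 higher in SAH against Naive. Of 5 tested proliferation genes 0 passed by edgeR, 0 by DESeq2 and 0 at an unadjusted p under 0.05, with a median log2 fold change of 0.13. Summed over all 6 genes of the list, with the untested Aurkb, levels were 5.86 to 19.0 CPM in SAH and 7.35 to 11.6 CPM in control mice. The SAH sums were spread more widely than the control sums, with SAH 1 highest at 19.0 CPM.

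Fibroblasts share Pdgfra with precursors, and pericytes share Cspg4. Of 7 fibroblast markers 6 rose and 0 fell, with a median log2 fold change of 0.91. Slc6a13, 1 of these 6, lost its call without any 1 of 8 mice (all but SAH 3 and Sham 6). DESeq2 called 5, without Slc6a13. Their summed level was 96.1 to 175 CPM in SAH and 88.3 to 119 CPM in control mice, and 0 of the 7 were at 0 in any group. Of 8 pericyte and smooth muscle markers 2 rose, Vtn (0.53) and Acta2 (0.78), with a median of 0.20 and summed levels of 176 to 230 CPM in SAH and 135 to 163 CPM in control mice, again with 0 markers at 0. In SAH mice 1 to 4 the fibroblast sum was 164, 175, 96.1 and 139 CPM and the pericyte and smooth muscle sum was 176, 185, 177 and 230 CPM. SAH 3, the mouse with the highest Pdgfra and Cspg4, had the lowest fibroblast sum of the 4, and SAH 4, with the lowest Pdgfra and the second highest Cspg4, had the highest pericyte sum. The part of these cells in the Pdgfra and Cspg4 values was not tested. Of 5 endothelial markers 2 rose, of 6 astrocyte markers 1, Gfap, and of 6 microglia markers 2, and in none of these lists did a gene fall. Without SAH 4 the endothelial and microglia counts were 0, and the endothelial count was 5 without SAH 1 and 1 without SAH 3, any 1 Sham mouse, Naive 8 or Naive 10. The microglia count was 1 without Naive 8, and the astrocyte count was 2, with Aldh1l1 added, without SAH 2 or Sham 5.

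The genes whose pattern over the 10 mice was most like the mean of the 5 committed members, by the root mean square difference of centred log2 CPM, were Chn2 (0.0761), Ermn (0.0778), Ick (0.0792), Inppl1 (0.0814) and Frmd8 (0.0825). For the mean of the 5 precursor members they were Mta1 (0.0274), Slc35a4 (0.0279), Mapk8ip1 (0.0331), Ctnnd1 (0.0355) and Ube2d1 (0.0356). The committed pattern itself varied by 0.253 and the precursor pattern by 0.0832 on this scale, so the precursor pattern was flatter. Ermn, an oligodendrocyte cytoskeleton gene, is also in the mature list.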

How the data were processed

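The authors deposited raw counts of read pairs for each gene name in 1 library per mouse (4 SAH, 3 Sham and 3 Naive). By the study's methods, ribosome-depleted stranded total RNA was sequenced as 50-base pairs and aligned to mm9 with STAR (version not given in the sources used here). By the same methods, featureCounts left out reads at several places or in more than 1 gene. Counting was by strand with featureCounts 1.6.2, a version read from the deposited counts. The study's methods state neither that version nor the strand setting. Exons of Lhfpl3, Gpr17, Bcas1 and Nkx2-2 overlap a gene on the opposite strand, and those of Pdgfra overlap a microRNA gene on the same strand. With counting by strand, only reads in the Pdgfra overlap were left out for this reason. Depth of 19743388 to 27254655 counts limits the precision of low genes, and a count of 0 would allow up to 3 counts; such limits cover counting error only.

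Groups follow the labels. edgeR 4.0.16 in R 4.3.3 was run over all genes with TMM scaling, the filterByExpr filter (minimum count 10, minimum total 15), its quasi-likelihood test, and p-values adjusted by Benjamini-Hochberg and called under 0.10, the study's threshold. SAH against control was fitted as 4 against 6 mice, and the pairwise comparisons came from 1 fit of 3 groups. Standard errors are the log2 fold change over the square root of F. Exact permutation tests of CPM were 2-sided; 4 against 3 mice cannot go below p = 0.0571 and 3 against 3 not below 0.100. Log2 CPM used a prior count of 2. The fit was also run on simulated data, with an outcome that is not given here. Alternatives were DESeq2 1.42.0, other scalings, filters and thresholds, a robust fit, averaged controls, fits of 2 groups and each mouse left out. Promoters came from RefSeq, and mm9 positions from the deposited files.

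The members and gene lists were chosen with earlier results of these data known. Genes named are the members, up to 6 called genes per list with the smallest p, and the 5 genes most like the mean of each member group; Sox10 and Apod were named after their values were seen. Of the listed genes, Zfp24 is not used here, and Cntf and Aurkb had too few counts for the test of SAH against control. A gene that the naming rule also covers is not reported here.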

Additional observations from a re-analysis of the deposited data

Results flagged for a closer look

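Of 20 groups of values looked at (each member in the 4 SAH mice and in the 6 control mice), 2 held a mouse far from the others, and chance would flag about 1 in 20. Among control mice Cspg4 stood out in Naive 9, at 23.3 CPM against 20.2 to 20.9 CPM in the other 5. C1ql1 stood out in Sham 6, at 10.6 CPM against 9.62 to 9.81 CPM in the others. Neither gene passed the test in any comparison, and both values lie inside the range of the SAH mice.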

How the results depend on the processing

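Under every alternative other than leaving out a mouse, the log2 fold changes of the 10 members kept their direction. In SAH against control, 1 member was called; DESeq2 called 3 (Bcas1, Enpp6 and Lhfpl3), and no filter, a robust fit and averaged Sham and Naive means called 2 each, while leaving out each mouse gave 1 to 3. Against Sham, 0 became 1 with DESeq2 and with no filter, and 0 to 1 with a mouse left out. Against Naive, 2 became 1 at an adjusted p under 0.05 and 0 to 2 with a mouse left out. Over the other genes of the lineage lists 18 were called (14 lower), 24 by DESeq2 (18 lower) and 11 to 21 with a mouse left out, the lowest without SAH 4. The cause of these changes was not tested. Leaving out a mouse turned the direction only of members that were not called: in SAH against control Pdgfra ranged from -0.098 to 0.079 and Cspg4 from -0.01 to 0.164, against Sham Pdgfra from -0.118 to 0.059, and against Naive Pdgfra from -0.078 to 0.098 and Cspg4 from -0.033 to 0.14. In Sham against Naive this held for Cspg4 (-0.086 to 0.018), Lhfpl3 (-0.032 to 0.011), C1ql1 (-0.004 to 0.067) and Bcas1 (-0.132 to 0.093). No paired analysis was possible because the groups share no animal number. Depth limits Nkx2-2 most, with 41 to 152 counts per mouse.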
